A study of Homo sapiens with 12 samples.

Results

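Interferon-stimulated genes are the genes that cells switch on after interferon receptors signal, and 54 of them were followed in 3 mantle cell lymphoma (MCL) cell lines. They were chosen by symbol, as well-known members of the group, with earlier results of these data known. All 54 were found among the 63677 genes of the count table, and all 54 were among the 18674 genes that passed the filter on low counts and were tested. The libraries came from the established lines JEKO1, JVM2 and MAVER1, each kept for 48 h in 4 conditions, which were control (Ctrl), ironomycin (Irono), ibrutinib (Ibru) and both drugs (Irono+Ibru). Ironomycin traps iron in lysosomes. JEKO1 received 50 nM of it, and both other lines received 250 nM. Ibrutinib inhibits the kinase BTK, and its dose was 0.5 µM for JEKO1, 1.5 µM for JVM2 and 6.25 µM for MAVER1. Line and dose therefore cannot be told apart, and JVM2 was also grown with less serum than the other lines. Each line gave 1 library per treatment, 12 in all, so that a treatment has 3 replicates, 1 per line. Each line stands for 1 tumour, and no label says that the 4 libraries of a line came from separate cultures, so p-values measure the spread between these libraries only. RNA was taken from whole cultures, in which fewer cells expressing a gene and less RNA per cell cannot be told apart.

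In the interferon pathway, sensors of foreign or misplaced RNA and DNA induce interferons, which bind receptors on the same or neighbouring cells. Type I and type III interferons activate a complex that contains STAT2 and IRF9 and binds a promoter element named ISRE, whereas interferon gamma acts mainly through an element named GAS. The induced proteins block viral entry, RNA translation and replication, and several of them, such as STAT2, IRF7, IRF9, the RNA sensors, USP18 and ISG15, feed back on the pathway itself.

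The promoters of the genes were searched for a short core of each element to show what the group shares at the sequence level. RefSeq start sites on GRCh38.p14 gave 61 windows of 300 bases (250 before and 50 after the start) for 45 of the 54 genes, and the other 9 had no entry. The ISRE core TTCNNTTTC, or GAAANNGAA on the other strand, was present in 37 of the 61 windows (60.7%), against 8.11% of all 35116 windows. The GAS core TTCNNNGAA, which reads the same on both strands, was present in 13 windows (21.3%), against 7.66% of all windows. Counted by gene, 32 of 45 held an ISRE core. Of the 21 genes that rose with ironomycin in JEKO1, 17 had a window and 13 of these held an ISRE core (76.5%), and of the remaining 33 genes, 28 had a window and 19 held one (67.9%). A match is a description of letters and not a binding site. Likewise, a missing match does not show that an element is absent, because elements that depart from these letters were not searched. The 4 genes with a promoter entry and the lowest adjusted p-values for a difference of the ironomycin effect between lines were IFI44L, MX1, OAS1 and XAF1. Their 250 bases before the outermost start are shown with ISRE and GAS cores in capitals. The bases are those of the reference genome, and a link between them and the contrast between lines described further on was not tested.
IFI44L (chr1:78620198-78620447, plus strand): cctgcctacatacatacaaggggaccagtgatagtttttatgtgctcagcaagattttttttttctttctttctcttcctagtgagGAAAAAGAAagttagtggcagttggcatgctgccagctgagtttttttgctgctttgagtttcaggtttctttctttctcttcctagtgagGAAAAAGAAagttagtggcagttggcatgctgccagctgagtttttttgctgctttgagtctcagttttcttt
MX1 (chr21:41420308-41420557, plus strand): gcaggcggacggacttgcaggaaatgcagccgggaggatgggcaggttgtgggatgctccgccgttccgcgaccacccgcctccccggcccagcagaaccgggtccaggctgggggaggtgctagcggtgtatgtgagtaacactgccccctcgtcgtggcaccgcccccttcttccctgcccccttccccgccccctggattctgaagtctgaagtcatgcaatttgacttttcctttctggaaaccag
OAS1 (chr12:112906712-112906961, plus strand): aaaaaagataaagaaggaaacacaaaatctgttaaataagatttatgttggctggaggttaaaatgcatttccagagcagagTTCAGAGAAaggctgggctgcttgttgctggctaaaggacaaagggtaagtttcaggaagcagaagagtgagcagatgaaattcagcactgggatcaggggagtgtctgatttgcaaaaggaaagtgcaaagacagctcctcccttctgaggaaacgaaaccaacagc
XAF1 (chr17:6755197-6755446, plus strand): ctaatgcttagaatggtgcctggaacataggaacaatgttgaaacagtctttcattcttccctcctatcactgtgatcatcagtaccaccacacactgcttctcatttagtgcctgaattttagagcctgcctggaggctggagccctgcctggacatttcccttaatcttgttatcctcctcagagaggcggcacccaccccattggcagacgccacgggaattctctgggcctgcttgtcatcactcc
The IFI44L promoter held 2 ISRE cores, which began 164 and 73 bases before the start. MX1 held none before this start and 2 overlapping cores just after it, at 11 and 17 bases, in the stretch chr21:41420567-41420585 that reads atGAAACCGAAACTGAAtt. Another of the 3 MX1 windows held an ISRE core 195 bases and a GAS core 189 bases before its own start. Of the cores searched, OAS1 held only that of GAS, 168 bases before the start. XAF1 held neither core in either of its 2 windows.

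Library totals ran from 35448523 to 38630809 reads (median 38212833). The 54 genes took 0.582% of the reads of the JVM2 control, 0.234% in the MAVER1 control and 0.200% in the JEKO1 control. With ironomycin these shares were 0.476%, 0.263% and 0.237%, so the group took a smaller share in JVM2 and a larger one in the other lines, with no replicate check. Abundant genes weigh most in such a share. IFI16 and ADAR gave 22978 and 18388 of the group's 76160 reads in the JEKO1 control. In MAVER1 the share was larger although 31 of the 54 genes were on the lower side with ironomycin and 23 on the higher side. The share of mitochondrial reads, between 0.883% and 2.18%, was lower with ironomycin in every line, for example 1.27% against 2.05% in JEKO1, and its part in the results was not tested. All 6 B-cell markers had reads in every library (summed reads 45434 to 83741). Of 3 MCL markers, SOX11 had 0 reads in the 4 JVM2 libraries. The other markers were present there, CCND1 with 8025 to 11280 reads and CCND2 with 8501 to 9648. Markers of other cells that respond to or make interferon were low. Over 3 genes each, T-cell markers summed to 1 to 112 reads, monocyte markers to 14 to 188 and plasmacytoid dendritic cell markers to 94 to 1126, the last mostly from IL3RA and LILRA4. CLEC4C, which defines plasmacytoid dendritic cells, had at most 16 reads.

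The main contrast compared, within each line, the 2 libraries with ironomycin (alone or with ibrutinib) with the 2 without it, in a fit with a separate effect of each drug for each line. A gene was said to rise or fall where it changed at least 2-fold and its p-value in edgeR's quasi-likelihood test, adjusted by Benjamini-Hochberg, lay under 0.05. In JEKO1, 21 of the 54 genes rose and 2 fell, against 6.12% and 1.85% of all genes tested. In JVM2, none rose and 4 (DDX60, IFIT1, CMPK2 and IFI27) fell, against 0.6% and 0.364%, although 42 had an unadjusted p-value under 0.05 in either direction (22.1% of all genes). DESeq2 called 2 of these 4 and not CMPK2 and IFI27. In MAVER1, 6 rose and 5 fell, against 4.61% and 2.21%. JEKO1 had a median log2 fold change of 0.65 over the group, JVM2 of -0.41 and MAVER1 of -0.08, beside medians of 0.03, 0.00 and 0.01 over all genes. Scaling by library totals in place of TMM moved the median of all genes in JEKO1 to 0.17, and the group stood 0.62 above all genes under either scaling. The 3 lines thus gave 3 pictures, a broad rise, a shallow fall and a split. When only ironomycin had a separate effect for each line and ibrutinib a common one, the calls of DDX60, IFI6, IFIT2, IRF7 and USP18 in JEKO1, of CMPK2, IFI27 and IFIT1 in JVM2 and of IFI44L, IRF9 and MX1 in MAVER1 were lost, and ISG20 and XAF1 were called in JVM2. With no filter on low counts DDX60 and IRF7 lost the call in JEKO1.

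Most changes in JVM2 were smaller than 2-fold. Without the fold minimum, 26 genes were lower and 1, GBP4, was higher in JVM2 at an adjusted p-value under 0.05, beside 2.14% and 2.93% of all genes. The same rule gave 33 higher and 4 lower in JEKO1 (19.2% and 18.2% of all genes) and 15 higher and 18 lower in MAVER1 (18.5% and 17.3%). In JVM2 the sign was negative for 50 of the 54 genes. The commonest sign patterns in the order JEKO1, JVM2, MAVER1 were higher, lower, lower (20 genes) and higher, lower, higher (19 genes), which 7.02% and 11.3% of all genes had. Only 3 genes, STAT2, IFIH1 and PARP14, were on the higher side in all 3 lines, a pattern that 26.6% of all genes had, and 10 were on the lower side in all 3 (25.7% of all genes).

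**Figure D1:**
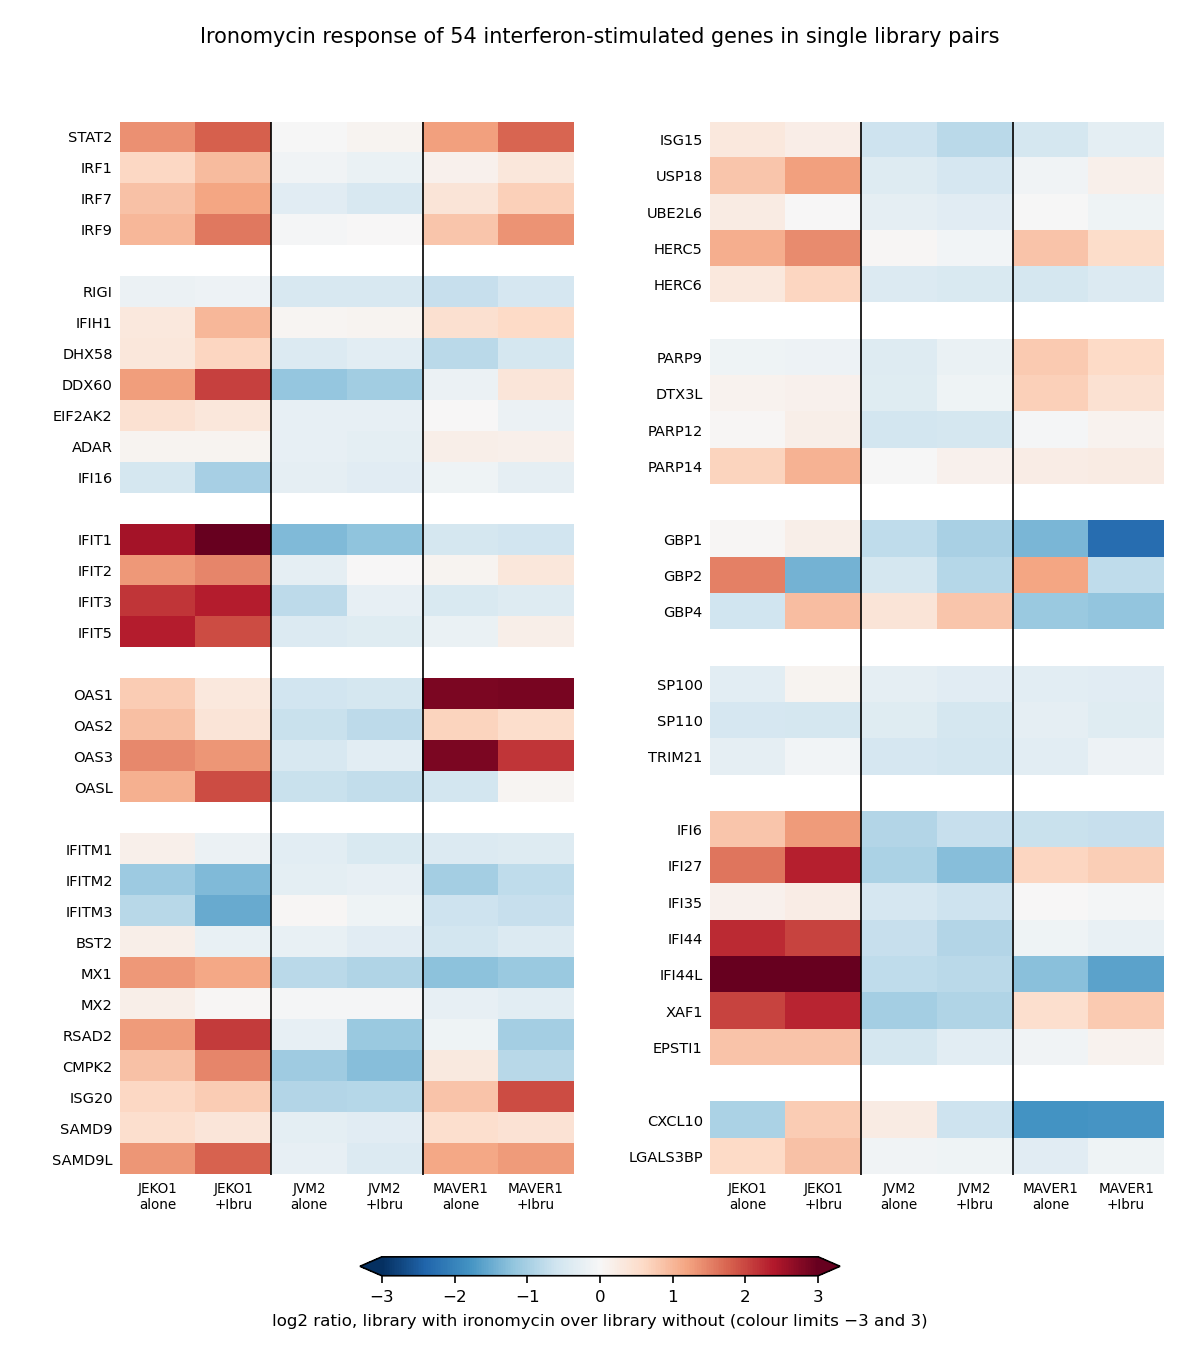
Log2 ratio of a library with ironomycin to the library of the same line without it, for 54 genes in blocks by role (rows) and 6 pairs of single libraries (columns, without and with ibrutinib in both libraries of the pair), with colours from blue (lower) to red (higher). JEKO1 columns are mostly red, JVM2 columns mostly pale blue and MAVER1 columns mixed, with OAS1 and OAS3 the strongest reds there.

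The same libraries can be read pair by pair. Each line holds 2 pairs that share no library, ironomycin against control and both drugs against ibrutinib. In JEKO1, 41 genes were higher in both pairs and 7 lower in both, against 40.5% and 35.7% of all genes. In JVM2, 2 were higher in both and 45 lower in both (35.1% and 35.3% of all genes). In MAVER1, 19 were higher in both and 25 lower in both (38.8% and 35.3%). Between single ironomycin and control libraries, 18 genes in JEKO1, 4 in JVM2 and 11 in MAVER1 lay past 2-fold in either direction, against 6.88%, 4.43% and 8.88% of all genes, with no replicate check.

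The lines also differed in the level from which the genes started. Over all treatments, 45 of the 54 genes were higher in JVM2 than in JEKO1 and 0 lower at the 2-fold call (22.8% and 23.9% of all genes), with a median log2 difference of 2.72. At an unadjusted p-value under 0.05, 51 of the 54 differed between these lines (79.6% of all genes), 49 of them higher in JVM2. MAVER1 was above JEKO1 for 27 genes and below it for 4 (15.1% and 19.1%; median 1.12), and JVM2 was above MAVER1 for 35 and below it for 1 (21.4% and 18.5%; median 1.32). The usual order was therefore JVM2, MAVER1, JEKO1. At the 2-fold call, the exceptions below JEKO1 in MAVER1 were IFI44L, CMPK2, IFITM1 and IFITM2, and PARP12 was higher in MAVER1 than in JVM2. Other exceptions had an adjusted p-value under 0.05 but changed by less than 2-fold. RIGI, IFI16 and IRF9 were lower in MAVER1 than in JEKO1. IFI16 and MX2 were lower in JVM2 than in JEKO1, and MX2 was also lower in JVM2 than in MAVER1. The lowest JVM2 value for IFI44L, 62.9 CPM (reads scaled by TMM and to a common library size), was above all 8 values of the other lines, which lay between 0.0268 and 6.2 CPM. Of the 21 genes that rose in JEKO1, all but STAT2, IFI27 and RSAD2 were lower in both of its ironomycin libraries than in the JVM2 library of the same treatment.

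**Figure D2:**
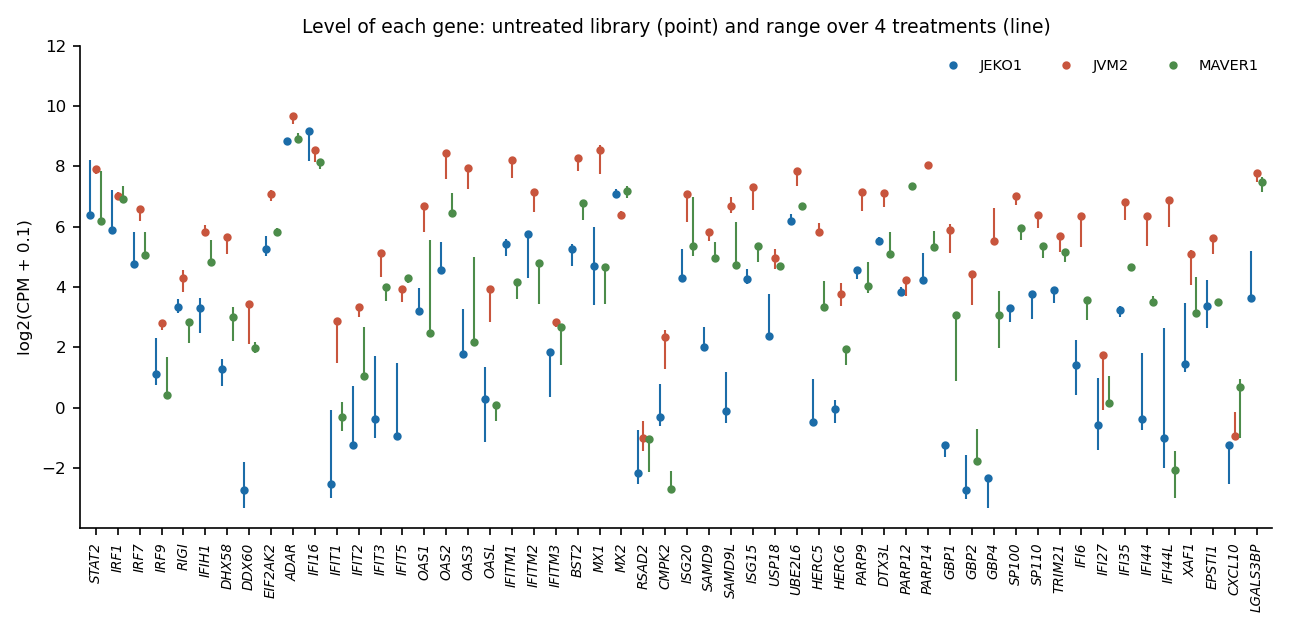
Level of each of the 54 genes as log2(CPM + 0.1), grouped by role along the horizontal axis, with the control library of each line as a point and the range over its 4 treatments as a line. JVM2 lies highest for most genes, and JEKO1 lies lowest for many.

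In what follows, the 4 libraries of a line are given in the order control, ironomycin, ibrutinib, both drugs, and log2 fold changes are given ± SE. STAT2, IRF9, IRF7 and IRF1 are transcription factors of the pathway, and all 4 differed in their ironomycin effect between lines. STAT2, which joins IRF9 in the complex that binds ISREs, measured 84.1, 218, 85.5 and 298 CPM in JEKO1, 242.5, 242, 212 and 226 CPM in JVM2, and 72.4, 171, 68.6 and 230.3 CPM in MAVER1. Both ironomycin libraries lay above both others in JEKO1 (log2 fold change 1.59 ± 0.13, adjusted p = 2.12e-05) and in MAVER1 (log2 fold change 1.50 ± 0.13, adjusted p = 2.47e-05), while the JVM2 values overlapped (log2 fold change 0.04 ± 0.12, adjusted p = 0.892). IRF9, the DNA-binding subunit of that complex, measured 2.085, 4.19, 1.61 and 4.9 CPM in JEKO1, 6.85, 6.7, 5.85 and 5.9 CPM in JVM2, and 1.24, 2.255, 1.185 and 3.09 CPM in MAVER1. It rose in JEKO1 (log2 fold change 1.30 ± 0.19, adjusted p = 0.000759) and MAVER1 (log2 fold change 1.13 ± 0.22, adjusted p = 0.00278) and overlapped in JVM2. IRF7, which drives type I interferon genes, measured 27.3, 49.9, 25.1 and 57.1 CPM in JEKO1, 96.9, 76.1, 102.5 and 73.5 CPM in JVM2, and 33.1, 43.4, 34 and 56.2 CPM in MAVER1. The JEKO1 level rose (log2 fold change 1.03 ± 0.10, adjusted p = 8.25e-05), and IRF7 was higher in MAVER1 by less than 2-fold (log2 fold change 0.56, adjusted p = 0.00194) and lower in JVM2 (log2 fold change -0.41, adjusted p = 0.0418). IRF1, a factor activated mainly by interferon gamma, was higher in JEKO1 by less than 2-fold (log2 fold change 0.79, adjusted p = 0.00024).

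**Figure D3:**
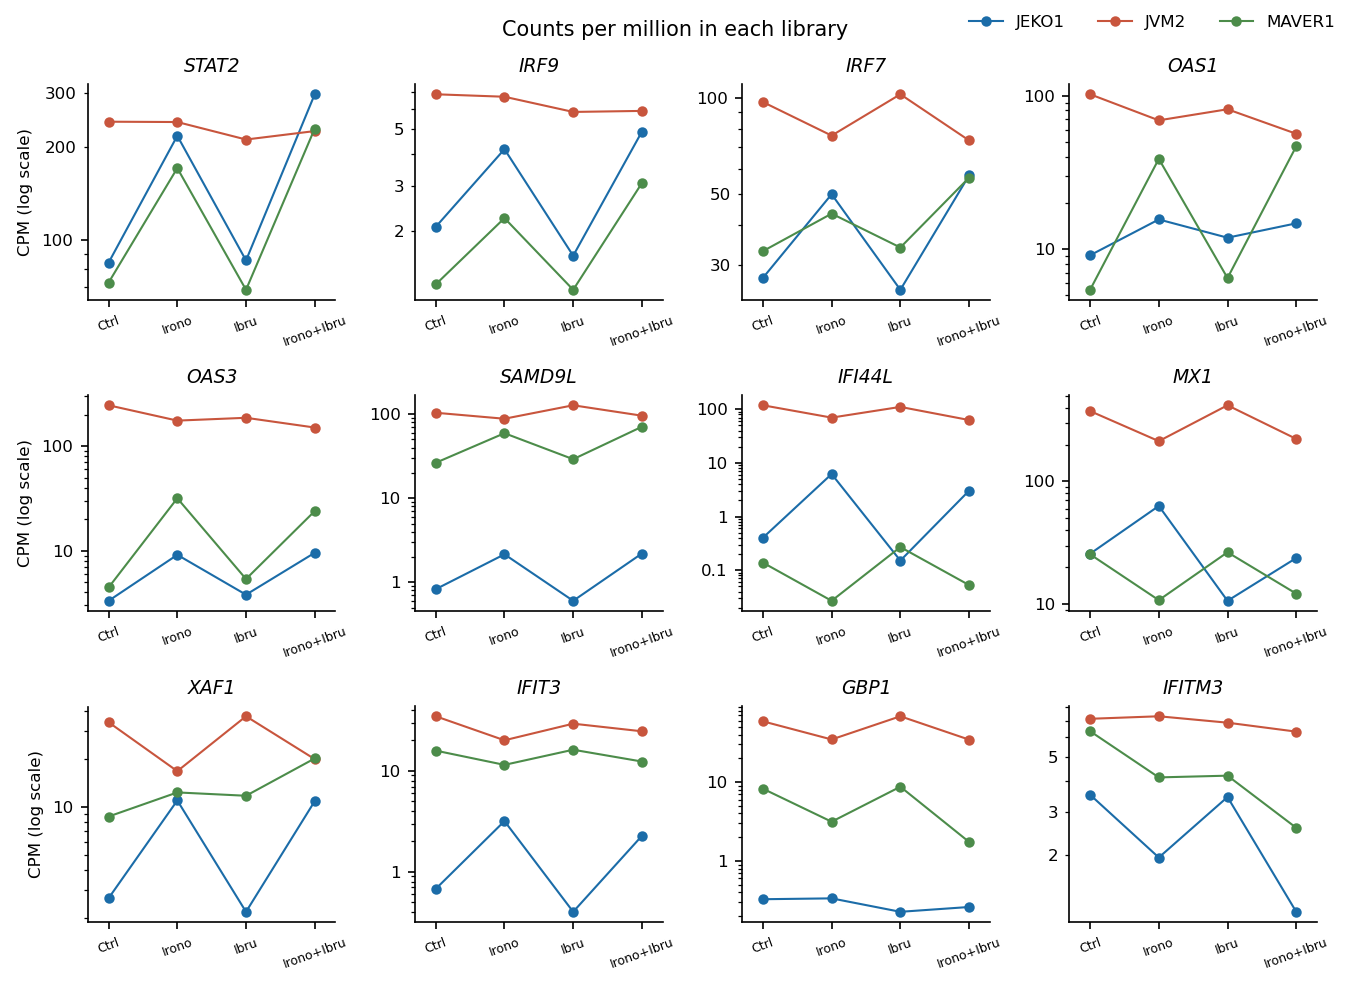
CPM (log scale, separate for each gene) in the 12 single libraries for 12 of the genes, with 1 colour per line and the treatments along the horizontal axis. STAT2, IRF9, OAS3 and SAMD9L go up with ironomycin in JEKO1 and MAVER1, while IFI44L and MX1 go up in JEKO1 within each pair of libraries and down in MAVER1 and JVM2.

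Of the 7 sensors of RNA and DNA, 1 passed the call. This was DDX60, a helicase that assists RNA sensing, which had 2, 8, 0 and 7 reads in JEKO1, 379, 175, 315 and 158 reads in JVM2, and 139, 127, 129 and 170 reads in MAVER1. In JVM2 both ironomycin libraries had fewer reads than both others (log2 fold change -1.11 ± 0.18, adjusted p = 0.0083). In JEKO1 the rise rests on 15 reads with and 2 without ironomycin, a ratio of 7.1 with a 95% exact interval of 1.65 to 64.0 that covers counting error only (log2 fold change 2.68, adjusted p = 0.0295). IFIH1 (MDA5), which detects long double-stranded RNA, measured 9.9, 12.4, 5.455 and 11 CPM in JEKO1, 56, 58.7, 62.6 and 66 CPM in JVM2, and 28.3, 39.55, 30.8 and 46.9 CPM in MAVER1. Its ironomycin values were above the others in JEKO1 (log2 fold change 0.64, adjusted p = 0.00479) and in MAVER1 (log2 fold change 0.54, adjusted p = 0.00484), each by less than 2-fold. IFI16, a DNA sensor, measured 577, 399, 575 and 286 CPM in JEKO1, 370.3, 305, 356 and 281 CPM in JVM2, and 283, 259, 288 and 238 CPM in MAVER1. The ironomycin libraries were the lower ones in each line, in JEKO1 with log2 fold change -0.77, adjusted p = 0.000547. RIGI, DHX58, EIF2AK2 (the RNA-activated kinase PKR) and the editing enzyme ADAR had log2 fold changes between -0.67 and 0.49 in the 3 lines.

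The IFIT family, whose members bind viral RNA ends and restrain translation, rose in JEKO1 as a whole, with 4 of 4 genes called. IFIT1 had 3, 28, 1 and 36 reads in JEKO1, 252, 104, 226 and 100 reads in JVM2, and 26, 18, 39 and 26 reads in MAVER1. JEKO1 went from at most 3 reads to at least 28 (log2 fold change 3.83 ± 0.47, adjusted p = 0.000268), and JVM2 fell (log2 fold change -1.28 ± 0.18, adjusted p = 0.00415). IFIT3 measured 0.678, 3.18, 0.402 and 2.27 CPM in JEKO1, 34.7, 20.1, 29.3 and 24.65 CPM in JVM2, and 15.9, 11.5, 16.2 and 12.4 CPM in MAVER1. With ironomycin it rose in JEKO1 (log2 fold change 2.33 ± 0.24, adjusted p = 9.33e-05) and was lower in JVM2 (log2 fold change -0.52, adjusted p = 0.0392) and MAVER1 (log2 fold change -0.43, adjusted p = 0.0255). IFIT5 measured 0.427, 2.39, 0.654 and 2.67 CPM in JEKO1, 15.3, 11.5, 14.7 and 11.3 CPM in JVM2, and 19.8, 17.3, 18.1 and 20.6 CPM in MAVER1. The level rose in JEKO1 (log2 fold change 2.23 ± 0.22, adjusted p = 6.84e-05) and its MAVER1 values overlapped. IFIT2 had 13, 37, 21 and 65 reads in JEKO1, 348, 299, 281 and 294 reads in JVM2, and 72, 79, 183 and 236 reads in MAVER1. The JEKO1 values rose with ironomycin (log2 fold change 1.49 ± 0.26, adjusted p = 0.00155), whereas in MAVER1 it was the ibrutinib libraries that stood above the others (log2 fold change with ibrutinib 1.43, adjusted p = 0.00311).

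The OAS enzymes make a short oligoadenylate that activates RNase L. Their largest changes were in MAVER1, and OAS1 was the gene with the largest rise there among the 54. OAS1 measured 9.1, 15.6, 11.8 and 14.7 CPM in JEKO1, 102, 68.9, 81.4 and 56.3 CPM in JVM2, and 5.42, 38.6, 6.465 and 46.65 CPM in MAVER1. In MAVER1 the ironomycin libraries stood 7.17-fold above the others (log2 fold change 2.84 ± 0.11, adjusted p = 3.88e-07), in JEKO1 the effect was below 2-fold (log2 fold change 0.54, adjusted p = 0.00347), and in JVM2 both ironomycin libraries were below both others (log2 fold change -0.55, adjusted p = 0.0116). OAS3 measured 3.32, 9.14, 3.8 and 9.56 CPM in JEKO1, 247, 176, 187 and 151 CPM in JVM2, and 4.45, 31.8, 5.36 and 24 CPM in MAVER1. It rose in MAVER1 (log2 fold change 2.49 ± 0.14, adjusted p = 2.14e-06) and JEKO1 (log2 fold change 1.40 ± 0.15, adjusted p = 0.000134). OAS2 measured 23.7, 44.5, 23.4 and 30.6 CPM in JEKO1, 347, 220.0, 326 and 189.6 CPM in JVM2, and 87.4, 138, 95.3 and 137 CPM in MAVER1. Its values were higher with ironomycin in JEKO1 (log2 fold change 0.65, adjusted p = 0.00169) and MAVER1 (log2 fold change 0.59, adjusted p = 0.00175) and lower in JVM2 (log2 fold change -0.72, adjusted p = 0.00579), each by less than 2-fold. OASL, a related protein without the enzyme activity, had 45, 102, 14 and 64 reads in JEKO1, 536, 352, 425 and 265 reads in JVM2, and 35, 24, 30 and 32 reads in MAVER1. It rose in JEKO1 (log2 fold change 1.46 ± 0.26, adjusted p = 0.00176) and was lower in JVM2 by less than 2-fold (log2 fold change -0.70, adjusted p = 0.038).

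Among the 11 inhibitors of entry, release and replication, MX1 showed the contrast between lines most clearly. MX1, a GTPase that traps viral nucleocapsids, measured 25.7, 63.1, 10.6 and 23.7 CPM in JEKO1, 376, 213.5, 419 and 223 CPM in JVM2, and 25.4, 10.7, 26.4 and 12.1 CPM in MAVER1. In JEKO1 each ironomycin library was above its partner without ironomycin (log2 fold change 1.23 ± 0.08, adjusted p = 7.98e-06), although both ibrutinib libraries were below their partners there (log2 fold change -1.35, adjusted p = 1.68e-05). In MAVER1 the ironomycin libraries fell below both others (log2 fold change -1.18 ± 0.09, adjusted p = 9.36e-06), and in JVM2 they were lower by just under 2-fold (log2 fold change -0.86 ± 0.08, adjusted p = 0.000374). SAMD9L, an inhibitor of translation, measured 0.829, 2.15, 0.603 and 2.2 CPM in JEKO1, 103.5, 87.9, 127 and 95.5 CPM in JVM2, and 26.3, 59.15, 29 and 70.6 CPM in MAVER1. The gene rose in JEKO1 (log2 fold change 1.60 ± 0.19, adjusted p = 0.000188) and MAVER1 (log2 fold change 1.22 ± 0.09, adjusted p = 8.51e-06) and did not pass the call in JVM2 (log2 fold change -0.32, adjusted p = 0.0513). ISG20, an RNA exonuclease, measured 19.7, 30.4, 22.7 and 38.5 CPM in JEKO1, 135, 72.9, 129.6 and 71.1 CPM in JVM2, and 40.6, 73.1, 32.9 and 128 CPM in MAVER1. It rose in MAVER1 (log2 fold change 1.41 ± 0.19, adjusted p = 0.000333) and was lower in JVM2 by less than 2-fold (log2 fold change -0.88, adjusted p = 0.0245). CMPK2, a nucleotide kinase, had 28, 56, 22 and 69 reads in JEKO1, 174, 85, 208 and 88 reads in JVM2, and 2, 3, 5 and 2 reads in MAVER1. It rose in JEKO1 (log2 fold change 1.24 ± 0.27, adjusted p = 0.00508) and fell in JVM2 (log2 fold change -1.19 ± 0.20, adjusted p = 0.0102), where DESeq2 did not call it. RSAD2 (viperin), its neighbour in the genome, had 5, 16, 3 and 21 reads in JEKO1, 14, 12, 23 and 10 reads in JVM2, and 14, 13, 12 and 5 reads in MAVER1 and rose in JEKO1 (log2 fold change 2.09 ± 0.54, adjusted p = 0.0118), a call on few reads that DESeq2 did not give.

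The IFITM proteins block membrane fusion at viral entry, and IFITM2 and IFITM3 were the 2 genes that fell in JEKO1. IFITM2 measured 53.7, 25.2, 48.7 and 19.6 CPM in JEKO1, 143, 117, 107 and 89.4 CPM in JVM2, and 27.8, 13.7, 18.4 and 10.7 CPM in MAVER1. It fell in JEKO1 (log2 fold change -1.20 ± 0.09, adjusted p = 1.3e-05) and was lower in MAVER1 by slightly under 2-fold (log2 fold change -0.90 ± 0.10, adjusted p = 8.15e-05), with both ironomycin libraries below both others in these lines. IFITM3 measured 3.52, 1.96, 3.44 and 1.18 CPM in JEKO1, 7.14, 7.305, 6.88 and 6.33 CPM in JVM2, and 6.36, 4.135, 4.2 and 2.59 CPM in MAVER1. It fell in JEKO1 (log2 fold change -1.16 ± 0.20, adjusted p = 0.00135), and the MAVER1 effect was smaller (log2 fold change -0.66, adjusted p = 0.0132). IFITM1 did not pass the call in any line, with log2 fold changes from -0.41 to 0.00. These neighbouring genes are near copies. The longest reading frames of IFITM2 and IFITM3 matched at 94.0% of 399 aligned bases, and IFITM1 matched them at 85.0% and 87.0%, so reads may be split between them in a way that depends on the counting. Other families of the list, such as IFIT, OAS and GBP, also have paralogs, for which this was not checked. BST2 (tetherin), MX2 and SAMD9 had changes of less than 2-fold in each line.

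Of the 5 genes of ISG15 conjugation, USP18 and HERC5 rose in JEKO1 and none passed the call elsewhere. USP18, the protease that removes ISG15 and dampens receptor signalling, measured 5.13, 9.18, 5.73 and 13.4 CPM in JEKO1, 31.4, 24.1, 38.7 and 27.4 CPM in JVM2, and 26, 24.3, 24.8 and 27.55 CPM in MAVER1. The JEKO1 level rose (log2 fold change 1.04 ± 0.12, adjusted p = 0.000196) and the JVM2 level was lower by less than 2-fold (log2 fold change -0.44, adjusted p = 0.0382). HERC5, the ligase that attaches ISG15, measured 0.628, 1.39, 0.654 and 1.85 CPM in JEKO1, 56.75, 58.5, 69.4 and 65.1 CPM in JVM2, and 10.1, 18.3, 10.7 and 15.8 CPM in MAVER1. The JEKO1 rise (log2 fold change 1.33 ± 0.21, adjusted p = 0.000972) was from 25 and 26 reads, and in MAVER1 the values were higher by less than 2-fold (log2 fold change 0.71, adjusted p = 0.000485). ISG15 itself, the ubiquitin-like modifier, was lower with ironomycin in JVM2 (log2 fold change -0.72, adjusted p = 0.0015) and MAVER1 (log2 fold change -0.42, adjusted p = 0.00391). UBE2L6 and HERC6 did not pass the call.

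PARP9 and its partner DTX3L, which belong to the ADP-ribosylation group, were higher with ironomycin in MAVER1 by less than 2-fold. PARP9 measured 23.8, 21.7, 21.1 and 18.95 CPM in JEKO1, 143, 109.7, 106 and 91.75 CPM in JVM2, and 16.25, 28.2, 13.8 and 20.8 CPM in MAVER1. In MAVER1 both ironomycin libraries lay above both others (log2 fold change 0.70 ± 0.09, adjusted p = 0.000258), and the JEKO1 and JVM2 values were on the lower side (log2 fold change -0.14, adjusted p = 0.224 in JEKO1; log2 fold change -0.30, adjusted p = 0.0613 in JVM2). DTX3L, which lies head to head with PARP9, gave log2 fold change 0.59, adjusted p = 0.000669 in MAVER1. PARP14 was higher in JEKO1 (log2 fold change 0.85, adjusted p = 0.000188) and PARP12 lower in JVM2 (log2 fold change -0.55, adjusted p = 0.00768), each by less than 2-fold.

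The guanylate-binding proteins GBP1, GBP2 and GBP4 are typical targets of interferon gamma, and GBP1 and GBP4 fell in MAVER1. GBP1 measured 0.327, 0.335, 0.226 and 0.26 CPM in JEKO1, 58.9, 34.7, 68.3 and 34.5 CPM in JVM2, and 8.24, 3.14, 8.73 and 1.74 CPM in MAVER1. It fell in MAVER1 (log2 fold change -1.81 ± 0.18, adjusted p = 6.63e-05) and was lower in JVM2 by less than 2-fold (log2 fold change -0.87, adjusted p = 0.00618), while JEKO1 had 9 to 14 reads in each library. GBP4 measured 0.1005, 0.0478, 0 and 0.0473 CPM in JEKO1, 46.3, 61, 54.5 and 97.5 CPM in JVM2, and 8.26, 3.81, 14.55 and 6.36 CPM in MAVER1. In MAVER1 each ironomycin library lay below its partner (log2 fold change -1.16 ± 0.15, adjusted p = 0.000272), and in JVM2 the ironomycin libraries were the higher ones (log2 fold change 0.62, adjusted p = 0.0176). GBP4 was the single gene of the 54 that was higher in JVM2 at an adjusted p-value under 0.05. GBP2 had 19 reads or fewer in every JEKO1 and MAVER1 library. SP100, SP110 and TRIM21, which are found in nuclear bodies or bind antibodies in the cytosol, had negative log2 fold changes in all 3 lines, between -0.53 and -0.13, and none of them passed the test of a difference between lines.

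The last large group holds 7 interferon-induced proteins of mixed or unknown function, and all 7 differed between lines. IFI44L measured 0.402, 6.195, 0.151 and 3.03 CPM in JEKO1, 118.5, 69.8, 110.5 and 62.9 CPM in JVM2, and 0.138, 0.02685, 0.269 and 0.0528 CPM in MAVER1. The JEKO1 rise was the largest of the 54 (log2 fold change 4.05 ± 0.18, adjusted p = 1.06e-06) and started from 16 reads in the control and 6 with ibrutinib. The JVM2 values were lower (log2 fold change -0.79 ± 0.08, adjusted p = 0.000623). In MAVER1 the fall rests on 15 reads without and 3 with ironomycin, a ratio of 5.12 with a 95% exact interval of 1.45 to 27.6 (log2 fold change -2.27, adjusted p = 0.0112). IFI44, its neighbour, measured 0.678, 3.42, 0.503 and 2.22 CPM in JEKO1, 82.3, 51.2, 75.2 and 40.85 CPM in JVM2, and 11.2, 10.3, 12.9 and 11.1 CPM in MAVER1. With ironomycin it rose in JEKO1 (log2 fold change 2.25 ± 0.18, adjusted p = 1.87e-05) and was lower in JVM2 by less than 2-fold (log2 fold change -0.78, adjusted p = 0.00103). XAF1, a promoter of apoptosis, measured 2.66, 10.95, 2.19 and 10.8 CPM in JEKO1, 33.9, 16.7, 37 and 19.9 CPM in JVM2, and 8.68, 12.3, 11.7 and 20.1 CPM in MAVER1. The level rose in JEKO1 (log2 fold change 2.17 ± 0.13, adjusted p = 3.21e-06), was higher in MAVER1 by less than 2-fold (log2 fold change 0.65, adjusted p = 0.00118) and was lower in JVM2 by just under 2-fold (log2 fold change -0.96 ± 0.10, adjusted p = 0.00103). IFI27, a mitochondrial protein, measured 0.578, 1.87, 0.2765 and 1.61 CPM in JEKO1, 3.25, 1.65, 2.18 and 0.862 CPM in JVM2, and 1.02, 1.64, 1.16 and 1.98 CPM in MAVER1. It rose in JEKO1 (log2 fold change 2.03 ± 0.28, adjusted p = 0.000492) and fell in JVM2 (log2 fold change -1.13 ± 0.23, adjusted p = 0.0219). IFI6, which inhibits viral replication at the endoplasmic reticulum, measured 2.56, 4.62, 1.26 and 3.12 CPM in JEKO1, 80.9, 44.2, 65.3 and 40.3 CPM in JVM2, and 11.75, 7.33, 12.15 and 7.52 CPM in MAVER1. The gene rose in JEKO1 (log2 fold change 1.04 ± 0.15, adjusted p = 0.000566) and was lower in JVM2 (log2 fold change -0.78, adjusted p = 0.0016) and MAVER1 (log2 fold change -0.69, adjusted p = 0.000825). EPSTI1 measured 10.25, 18.5, 6.18 and 11.3 CPM in JEKO1, 49.7, 34.3, 42.05 and 33.9 CPM in JVM2, and 11.3, 10.4, 11.1 and 11.8 CPM in MAVER1, and the ironomycin effect was below 2-fold in each line. IFI35 was lower in JVM2 (log2 fold change -0.56, adjusted p = 0.00328).

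The list holds 2 secreted proteins. CXCL10, a chemokine that attracts T cells, had 13, 6, 3 and 7 reads in JEKO1, 15, 19, 29 and 19 reads in JVM2, and 55, 15, 68 and 19 reads in MAVER1. It fell in MAVER1 (log2 fold change -1.88 ± 0.35, adjusted p = 0.00199), where both ironomycin libraries had fewer reads than both others, and its values overlapped in JEKO1 and JVM2. LGALS3BP, a glycoprotein that binds galectins, was higher with ironomycin in JEKO1 by less than 2-fold (log2 fold change 0.75, adjusted p = 0.000358).

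The difference of the ironomycin effect between lines was tested directly, with 2 coefficients over the 3 lines. It passed an adjusted p-value of 0.05 for 41 of the 54 genes, beside 13.3% of all genes tested, and the 13 genes that did not pass were BST2, CXCL10, GBP2, HERC6, IFI16, IFIH1, IFITM1, MX2, RIGI, SP100, SP110, TRIM21 and UBE2L6. Without the JVM2 libraries 16 of the 54 passed, beside 2.44% of all genes in that fit. The effect in JEKO1 was above that in JVM2 for 35 genes and below it for 2 (6.29% of all genes in either direction). The effect in MAVER1 was above that in JVM2 for 19 and below it for 3 (9.94%), and the effect in JEKO1 was above that in MAVER1 for 18 and below it for 3 (5.32%). These pairwise tests were added after the data were examined. The genes with a larger effect in MAVER1 than in JEKO1 were OAS1, OAS3 and PARP9.

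**Figure D4:**
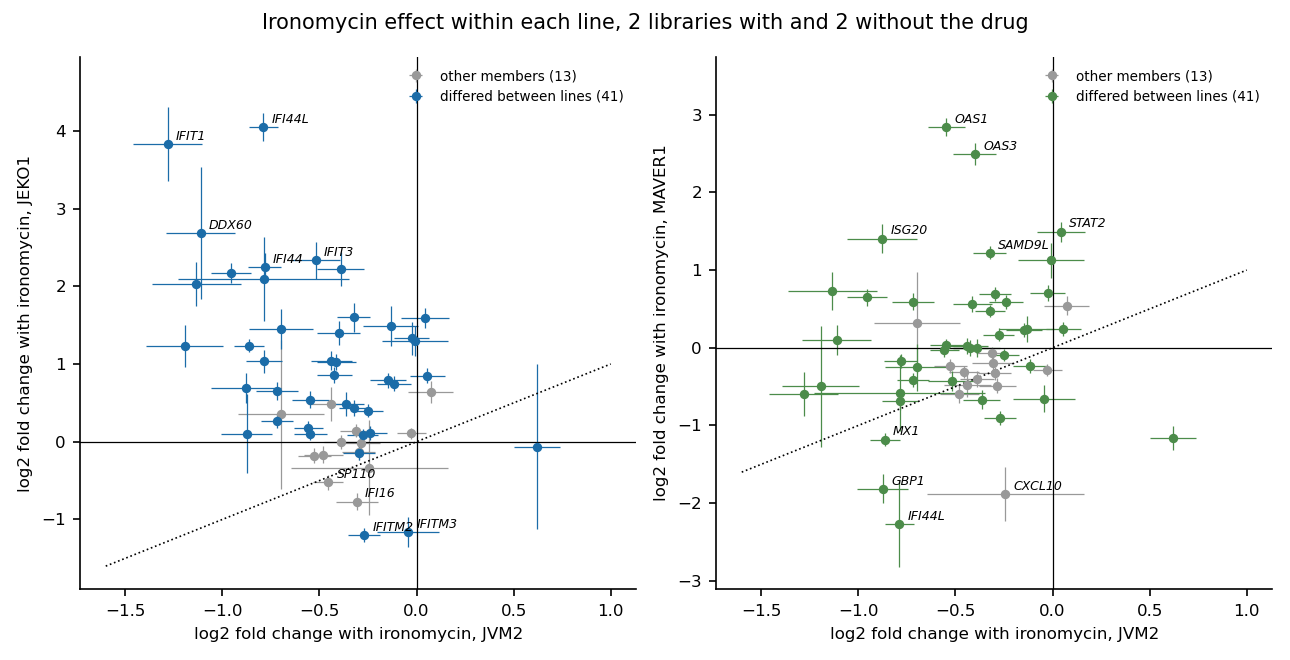
Log2 fold change with ironomycin (2 libraries with against 2 without the drug) in JEKO1 (left) and MAVER1 (right) against that in JVM2, with standard errors as bars, the line of equal effects dotted, and the 41 genes that differed between lines in colour. Most JEKO1 points lie above the dotted line and most points lie left of 0 in JVM2.

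Averaged over the 3 lines, few of the genes passed the call, as was so for all genes tested. Ironomycin against control gave 0 called genes (0.214% of all genes), with 9 of the 54 at an unadjusted p-value under 0.05 (22.5% of all genes) and 0 by DESeq2, and the median log2 fold change was 0.03. Without JVM2, 4 genes (OAS3, STAT2, SAMD9L and IFITM2) were called (2.05% of all genes). Both drugs against control gave 3 calls (6.29% of all genes). STAT2 rose (log2 fold change 1.16 ± 0.33, adjusted p = 0.0251; higher in 2 of 3 lines), and IFITM2 (log2 fold change -1.16 ± 0.19, adjusted p = 0.00392) and GBP1 (log2 fold change -1.25 ± 0.31, adjusted p = 0.0151) fell, each lower in 3 of 3 lines. In JEKO1, however, GBP1 had only 13 reads in the control and 11 with both drugs. The count of calls became 10 when JVM2 was left out (10.4% of all genes) and 0 when either of the others was. Both drugs against ibrutinib gave 2 calls (4.66%), STAT2 (log2 fold change 1.26 ± 0.33, adjusted p = 0.0213; higher in 3 of 3 lines) and GBP1 (log2 fold change -1.34 ± 0.31, adjusted p = 0.0139; lower in 2 of 3 lines), with 8 calls when JVM2 was left out (8% of all genes) and 0 when JEKO1 or MAVER1 was. These comparisons share libraries with one another and are not independent.

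Ibrutinib gave few calls, in the group and among all genes tested. Over the 3 lines, ibrutinib against control gave 0 calls (0% of all genes), with 0 at an unadjusted p-value under 0.05 (3.64%) and 0 by DESeq2, and both drugs against ironomycin also gave 0 (0% of all genes), with 2 at an unadjusted p-value under 0.05 (10.5%) and 0 by DESeq2. Within lines, from the 2 libraries with and 2 without ibrutinib, MX1 (log2 fold change -1.35 ± 0.08, adjusted p = 1.68e-05) and IFI44L (log2 fold change -1.06 ± 0.14, adjusted p = 0.00176) fell in JEKO1 (1.57% of all genes), IFIT2 rose in MAVER1 (log2 fold change 1.43 ± 0.17, adjusted p = 0.00311; 0.246%), and none was called in JVM2 (0.0589%), where 16 had an unadjusted p-value under 0.05 (8.63% of all genes). The ibrutinib effect differed between lines for MX1, LGALS3BP, IFIT2 and IFI44L (0.948% of all genes), a count of 4 that became 1 without JEKO1 (0.213% of all genes) or without JVM2 (0.0556%). LGALS3BP measured 12.4, 18.7, 20.0 and 36.8 CPM in JEKO1, 218, 204, 197 and 179 CPM in JVM2, and 179.5, 141.5, 198 and 181 CPM in MAVER1. Both ibrutinib libraries of JEKO1 stood above their partners without it (log2 fold change 0.84 ± 0.10, adjusted p = 0.000742).

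Other genes of the pathway were read from hand-made lists of receptors, sensors and targets. None of 21 interferon genes passed the filter on low counts. In JEKO1, IFNA21 had 2, 31, 1 and 66 reads and IFNW1 had 8, 36, 7 and 46 in the 4 libraries, with at most 2 and 6 reads in any library of the other lines, and IFNB1 had 0, 4, 0 and 5. In JVM2, IFNA2 had 8, 10, 14 and 9 reads and IFNG had 9, 16, 9 and 8, with at most 1 read in any library of the other lines. These interferon genes were named after their reads were seen. Interferon alpha genes are near copies of each other, so the gene that a read is counted on is uncertain, and no test was made on these reads. Of 20 receptors and signalling genes, all tested, IRF8, a factor of B and myeloid cells, fell in MAVER1 (log2 fold change -1.30 ± 0.09, adjusted p = 8.4e-06), where 2.21% of all genes fell. Its ironomycin libraries were also the lower ones in JEKO1 (363.5, 182, 340 and 210 CPM), where it was not called. The ironomycin effect on IRF8 and on IFNGR2 differed between lines, beside 13.3% of all genes. Of 14 tested sensors and adaptors, TLR7, an endosomal receptor for single-stranded RNA, rose in JEKO1 (log2 fold change 1.09 ± 0.10, adjusted p = 6.02e-05) and MAVER1 (log2 fold change 1.29 ± 0.11, adjusted p = 2.03e-05), and AIM2, a DNA sensor, fell in JEKO1 (log2 fold change -1.35 ± 0.17, adjusted p = 0.000303). TLR7, AIM2 and TICAM1 differed between lines, 3 of the 14 against 13.3% of all genes.

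Of 30 tested further interferon targets, 7 rose and 1 fell in JEKO1 (6.12% and 1.85% of all genes). None was called in JVM2 (0.6% and 0.364%), where 18 had an unadjusted p-value under 0.05 (22.1% of all genes), and 3 rose and 2 fell in MAVER1 (4.61% and 2.21%). Those that rose in JEKO1 were APOL1, APOL6, DDX60L, IFI30, PLSCR1, RTP4 and SLFN5, led by DDX60L (log2 fold change 2.24 ± 0.41, adjusted p = 0.00201) and APOL6, a lipid-binding protein (log2 fold change 1.41 ± 0.14, adjusted p = 8.01e-05). DDX60L had only 2, 13, 6 and 28 reads in the JEKO1 libraries, and IFI30 had 10, 22, 12 and 35. BATF2 fell there (log2 fold change -1.49 ± 0.34, adjusted p = 0.00649). In MAVER1, CD274, which encodes the checkpoint ligand PD-L1, rose (log2 fold change 1.29 ± 0.26, adjusted p = 0.00284), as did IFI30, a lysosomal thiol reductase (log2 fold change 1.68 ± 0.32, adjusted p = 0.00207), and SLFN5 (log2 fold change 1.30 ± 0.19, adjusted p = 0.000439), whereas GBP5 (log2 fold change -2.00 ± 0.57, adjusted p = 0.018) and LY6E (log2 fold change -1.32 ± 0.15, adjusted p = 0.000116) fell. GBP5 had only 18, 4, 14 and 4 reads in the MAVER1 libraries, and IFI30 had 9, 38, 16 and 44. The ironomycin effect differed between lines for 17 of the 30, against 13.3% of all genes. These 30 genes had median log2 fold changes of 0.62 (JEKO1), -0.19 (JVM2) and 0.07 (MAVER1).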

How the data were processed

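Poly(A) RNA of 12 libraries was sequenced in paired-end mode. The file the authors deposited holds raw, unnormalized counts for each Ensembl gene, 1 column per library and 0 columns of other samples. The submitters' processing notes name STAR, DESeq2 and GRCh37, and the counting tool, annotation and strand setting are not given in the sources used here. Of the 63677 genes, 52181 were named from tables of gene names. Genes were filtered (filterByExpr by treatment, 18674 kept), scaled by TMM and tested by the quasi-likelihood F-test of edgeR 4.0.16 (R 4.3.3), with p-values adjusted by Benjamini-Hochberg over all 18674. Treatments and levels were compared with treatment and line as terms. Effects within a line were fitted with 1 coefficient per drug and line (9 coefficients, 3 residual degrees of freedom), which assumes that both drugs add on the log scale. Calls needed a log2 fold change of 1 or more in size with an adjusted p-value under 0.05, and tests of differences between lines needed the p-value alone. Standard errors were taken from the fold change and F. Log2 ratios of single libraries used a prior count of 2. The line is a block because the libraries of a number come from the same line: deviations from treatment means correlated at 0.926 to 0.976 within lines (18 pairs). Pairs of different line and different treatment correlated at -0.684 to -0.127 (36 pairs). Each treatment mean is taken over the 3 lines, which by itself pushes values between lines below 0.

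Alternatives were DESeq2 1.42.0, other scalings, filters and fold minima, the fit without the block and leaving out each line. The genes and lists were chosen with earlier results of these data known, and a result for a further gene of the pathway is not reported here. Of the 54, every gene called in a comparison over the 3 lines, within a line, or among the 20 lowest adjusted p-values for the difference between lines, and the 3 largest rises and falls of each line (at least 20 reads in both libraries), is given in every library. Promoters are from RefSeq (GRCh38.p14), a build other than that of the counts. IFITM reading frames were taken from GENCODE 29 transcripts and aligned with Biopython 1.88. Tables were made with Python 3.11.15 and pandas 2.3.3, and plots with matplotlib 3.10.9.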

Additional observations from a re-analysis of the deposited data

Results flagged for a closer look

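The ironomycin effect differed between the 3 lines for 41 of the 54 genes, by edgeR's quasi-likelihood test of 2 coefficients (13.3% of all genes), and for 16 without the JVM2 libraries (2.44%). The adjusted p-values were IFI44L (5.57e-06), OAS1 (7.6e-06), MX1 (7.6e-06), XAF1 (1.61e-05), OAS3 (4.03e-05), IFI44 (4.97e-05), SAMD9L (9.03e-05), IFI6 (0.000399), IFIT3 (0.000400), IFIT5 (0.000493), IFIT1 (0.000501), IRF7 (0.000561), OAS2 (0.000592), STAT2 (0.000746), EPSTI1 (0.00086), USP18 (0.000905), GBP4 (0.000945), IFI27 (0.00116), ISG20 (0.00116), PARP9 (0.00138), ISG15 (0.00197), LGALS3BP (0.00206), SAMD9 (0.00217), IFITM2 (0.00236), CMPK2 (0.00341), HERC5 (0.00374), OASL (0.00386), IRF1 (0.00409), DTX3L (0.00558), IFI35 (0.00561), PARP14 (0.00832), EIF2AK2 (0.00842), DHX58 (0.00916), PARP12 (0.00933), DDX60 (0.00939), IRF9 (0.0136), IFIT2 (0.0137), GBP1 (0.0261), IFITM3 (0.0337), RSAD2 (0.0361) and ADAR (0.0429). Dose differed between the lines as well, so line and dose cannot be told apart. The ibrutinib effect differed between lines for 4 genes, with adjusted p-values in brackets: MX1 (0.000469), LGALS3BP (0.014), IFIT2 (0.015) and IFI44L (0.035). The ibrutinib doses were different in each line.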

How the results depend on the processing

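With all alternatives counted, 124 counts of called genes stayed within 1.5 times of the value reported and 29 did not, and no called value of a single gene changed sign. Scaling by library totals turned the sign of group medians that lay near 0, from -0.03 to 0.10 for both drugs against control, -0.06 to 0.04 for both drugs against ibrutinib, -0.04 to 0.02 for both drugs against ironomycin and -0.02 to 0.01 for ibrutinib against control. Of the medians, 99 moved by less than their spread and 12 by more, all 12 within single lines and with no change of sign. This spread was taken between lines for comparisons over the 3 lines and between the 2 pairs for effects within a line. For levels it was taken between the 4 treatments. Without the replicate block for line, both drugs against control and both drugs against ibrutinib each gave 0 calls in place of 3 and 2, and with only the 2 treatments compared in the fit both also gave 0. Without the fold minimum they gave 11 and 6, beside 5268 and 4359 of all 18674 genes. Under that rule the ironomycin effect gave 37 in JEKO1, 27 in JVM2 and 33 in MAVER1, beside 6983, 947 and 6700 of all genes. The ibrutinib effect gave 9 in JEKO1. Leaving out 1 line gave 0 to 4 calls for ironomycin against control, 0 to 10 for both drugs against control, 0 to 8 for both drugs against ibrutinib, 16 to 36 for the difference of the ironomycin effect between lines and 1 to 3 for that of ibrutinib. The latter was 2 with no filter on low counts and 0 with line terms for 1 drug only, a fit that also gave 0 calls for ibrutinib within JEKO1 and within MAVER1. Scaling by library totals gave 1 for ibrutinib in JEKO1. DESeq2 gave 2 for ironomycin in JVM2. Pairwise tests of the ironomycin effect, added after the data were examined, gave 22 genes for MAVER1 against JVM2 and 21 for JEKO1 against MAVER1. With at least 20 reads in both libraries, 11 genes in JEKO1 lay past 2-fold between single libraries, in place of 18. Of single genes, 1449 values stayed on their side of the threshold and 135 lost the call. The block changed no other count by more than 1.5 times. Except where the alternative itself uses fewer samples or genes, the cause was not tested. Depth limits genes with few reads, among them DDX60, IFIT1, RSAD2 and GBP4 in JEKO1 and IFI44L in MAVER1. The JEKO1 rises of IFI44L, IFI27, IFIT2, IFIT3 and IFIT5 also started from few reads. Of the further targets, DDX60L in JEKO1 and GBP5 in MAVER1 had few reads as well.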
